A study of Mus musculus with 6 samples.

Results

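Adrenergic receptors are the cell surface receptors of adrenaline and noradrenaline, and 8 receptor genes were followed here, namely *Adra1a*, *Adra1b*, *Adra1d*, *Adra2a*, *Adra2b*, *Adra2c*, *Adrb1* and *Adrb3*. They were chosen by family name and found by their NCBI gene identifiers, and they are 8 of the 18191 genes measured. RNA-seq of the whole aorta was performed in male mice, giving 3 libraries for wild type (WT) and 3 for *Npr1+/-* mice, each set numbered 1 to 3. *Npr1+/-* mice carry a heterozygous knockout of *Npr1* made by CRISPR-Cas9, with no restriction to a cell type given. *Npr1* encodes the natriuretic peptide receptor that makes cyclic GMP and relaxes vessels. No other allele or agent is given for these mice, and their age is not given in the sources used here. Nothing says whether the libraries of a group came from separate animals, so p-values measure the spread between these libraries only, which may be technical.

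Noradrenaline from sympathetic nerve endings and adrenaline from the adrenal medulla act on vessels through 3 receptor classes. Alpha 1 receptors signal through Gq and phospholipase C and contract smooth muscle. Alpha 2 receptors signal through Gi, lower cyclic AMP and also sit on nerve endings and endothelium, while beta receptors signal through Gs and raise cyclic AMP, which relaxes smooth muscle and drives fat breakdown in adipocytes.

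Estimated counts summed to between 13510970 and 16664343 per library. The first principal component, with 59.3% of the variance, separated the 2 libraries numbered 1 from the other 4. As FPKM, which scales fragments by transcript length and library size, *Npr1* itself was at 112, 153 and 152 FPKM in WT 1 to 3 and at 70.4, 110 and 133 FPKM in *Npr1+/-* 1 to 3. The groups overlapped, and *Npr1* was lower in the *Npr1+/-* library of each number (log2 fold change -0.41, standard error 0.27, adjusted p = 0.999, edgeR). Smooth muscle markers were present in all 6 libraries, with 6 genes (*Myh11*, *Acta2*, *Cnn1*, *Tagln*, *Lmod1* and *Myocd*) summing to 8154 to 14340 FPKM in WT and 4718 to 13640 in *Npr1+/-* aortas. Fat markers (*Adipoq*, *Plin1*, *Lipe*, *Cidec*, *Fabp4* and *Lep*) summed to 7293, 1441 and 1893 FPKM in WT 1 to 3 and 11300, 3808 and 3228 FPKM in *Npr1+/-* 1 to 3, and the libraries numbered 1 were highest in their group. *Fabp4* alone made up most of that sum, at 5995, 1173 and 1597 FPKM in WT 1 to 3 and 9147, 3184 and 2731 FPKM in *Npr1+/-* 1 to 3. The summed FPKM of 10 sympathetic neuron markers was between 69.1 and 82.8 in 5 libraries and 291 in *Npr1+/-* 1, where all 10 genes were highest. *Uchl1* alone made up 61.9 to 78.6 FPKM of that sum in the 5 libraries. Since whole tissue was sequenced, fewer cells of a type and less RNA per cell cannot be told apart.

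Per length of transcript, *Adrb3* and *Adra1d* were the most abundant of the 8 receptor genes. The median FPKM over the 6 libraries was 47.0 for *Adrb3*, the beta 3 receptor of adipocytes, and 21.4 for *Adra1d*, the alpha 1 receptor known for contraction of the mouse aorta. It was 2.84 for *Adra1a*, 1.76 for *Adrb1*, 1.43 for *Adra2a*, 1.38 for *Adra1b*, 0.83 for *Adra2c* and 0.13 for *Adra2b*. Of neighbours in this order, *Adra1d* was above *Adra1a*, *Adra1a* above *Adrb1*, *Adra1b* above *Adra2c* and *Adra2c* above *Adra2b* in 6 of 6 libraries each, with p = 0.0312 in an exact two-sided sign-flip permutation test, the smallest p that 6 libraries allow. With adjustment over the 7 neighbouring pairs this became 0.0547, so that no pair passed the threshold of 0.05. *Adrb3* was above *Adra1d* in 4 of 6 libraries (p = 0.156, exact sign-flip permutation test), and *Adrb1*, *Adra2a* and *Adra1b* also changed places between libraries. By group medians, *Adra1d* led in WT and *Adrb3* in *Npr1+/-* aortas.

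**Figure D1:**
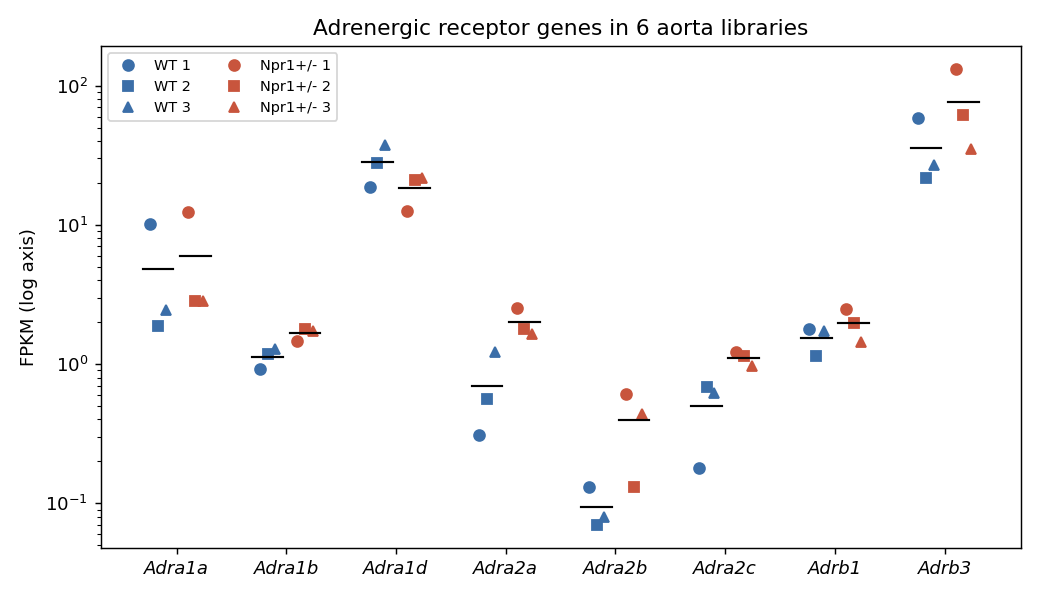
FPKM of the 8 receptor genes on a log axis in each library, with WT in blue, *Npr1+/-* in red, one marker shape per library number and a black line at the group mean. *Adra1b*, *Adra2a* and *Adra2c* have all 3 *Npr1+/-* libraries above all 3 WT libraries, and the groups of the other genes overlap or meet.

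Between the genotypes, none of the 8 receptor genes passed the threshold, which asked for an adjusted p below 0.05 and a log2 fold change of 0.5 or more in size (edgeR's quasi-likelihood test). The same was true of all 13938 genes tested, with 0 calls (0%). Of the 7 receptor genes that passed the filter on low counts, 2 had an unadjusted p under 0.05 (*Adra2a* and *Adra2c*), where 2.96% of all tested genes did. The fitted log2 fold change was above 0 for 6 of these 7 and below 0 for *Adra1d*, with a median of 0.56 against 0.01 over all tested genes. In CPM (counts scaled by library size) normalized between libraries, all *Npr1+/-* libraries were above all WT libraries for 3 of the 7 genes (*Adra1b*, *Adra2a* and *Adra2c*), where 3.9% of all tested genes were so placed, and all were below for 0 of 7, against 3.58% of tested genes.

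Among the alpha 1 genes, which raise calcium in smooth muscle, *Adra1d* was the most abundant. *Adra1d* (NCBI gene 11550, chromosome 2 of GRCm38, 131545850 to 131562283, minus strand) was at 18.8, 28.0 and 37.4 FPKM in WT 1 to 3 and at 12.7, 21.1 and 21.7 FPKM in *Npr1+/-* 1 to 3. The 2 lowest values were those of the libraries numbered 1, and the groups overlapped since WT 1 lay under *Npr1+/-* 2 and 3. Each *Npr1+/-* library was below the WT library of its number, at 70.4%, 77.6% and 55.1% of its normalized CPM. The fit gave a log2 fold change of -0.60 (95% interval -1.34 to 0.13, standard error 0.31, adjusted p = 0.999, edgeR). With the replicate number as a block it was -0.58 (unadjusted p = 0.0024, adjusted p = 0.15, edgeR).

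Smooth muscle marker RNA moved with *Adra1d*. Summed over the smooth muscle markers, the libraries held 8154, 13590 and 14340 FPKM in WT 1 to 3 and 4718, 12930 and 13640 FPKM in *Npr1+/-* 1 to 3, with 0 of 6 markers apart between the groups and none at 0. Set against 1000 FPKM of these markers, *Adra1d* was at 2.31, 2.06 and 2.61 FPKM in WT 1 to 3 and at 2.69, 1.63 and 1.59 FPKM in *Npr1+/-* 1 to 3. The highest library was 1.69 times the lowest on this scale and 2.95 times in FPKM, and the groups still overlapped, with *Npr1+/-* 1 highest and *Npr1+/-* 2 and 3 lowest. The part of smooth muscle RNA in the *Adra1d* values was not tested.

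*Adra1a* (NCBI gene 11549, chromosome 14, 66635251 to 66771168, plus strand) encodes the alpha 1A receptor of resistance arteries and other smooth muscle. It was at 10.1, 1.87 and 2.46 FPKM in WT 1 to 3 and at 12.4, 2.82 and 2.85 FPKM in *Npr1+/-* 1 to 3. Both libraries numbered 1 were several times above the other 4, whose values lay close together in the 2 groups. Its log2 fold change of 0.25 carried a standard error of 0.68 (adjusted p = 0.999, edgeR), and it was -0.57 without *Npr1+/-* 1 and 1.15 without WT 1, so its sign depended on the libraries kept. The log2 fold change was 0.36 without both libraries numbered 1, and 0.30 with the block (unadjusted p = 0.0335, adjusted p = 0.35, edgeR). Fat markers moved with *Adra1a*. Per 1000 FPKM of fat markers it was 1.39, 1.30 and 1.30 FPKM in WT 1 to 3 and 1.10, 0.741 and 0.883 FPKM in *Npr1+/-* 1 to 3. On that scale all *Npr1+/-* libraries were below all WT libraries, while the groups of the other receptor genes overlapped. Per 1000 FPKM of endothelial markers, listed with *Adra2a*, such a placement was found for *Adra1d* and *Adrb1*, and the opposite one for *Adra2a*. The share of all genes so placed on these scales was not counted.

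*Adra1b* (NCBI gene 11548, chromosome 11, 43774606 to 43901210, minus strand) encodes the alpha 1B receptor. It was measured at 0.92, 1.18 and 1.29 FPKM in WT 1 to 3 and at 1.46, 1.79 and 1.73 FPKM in *Npr1+/-* 1 to 3, from 40 to 92 estimated counts per library. Every *Npr1+/-* library was above every WT library. The mean normalized CPM was 3.65 ± 0.705 (SD, n = 3) for WT and 5.38 ± 0.494 (SD, n = 3) for *Npr1+/-* aortas, the latter at 147% of the former. *Adra1b* had a log2 fold change of 0.56 (95% interval -0.02 to 1.14, standard error 0.24, adjusted p = 0.999, edgeR), and an exact permutation test of log2 CPM gave p = 0.1, the smallest that 3 libraries against 3 allow. Without each library in turn the log2 fold change was between 0.42 and 0.68. The summed FPKM of 6 endothelial markers, given with *Adra2a*, also separated the groups, with *Npr1+/-* above WT. Per 1000 FPKM of these markers *Adra1b* was 5.21, 9.77 and 6.59 FPKM in WT 1 to 3 and 4.58, 7.78 and 7.63 FPKM in *Npr1+/-* 1 to 3. On this scale the groups overlapped, with a lower mean in *Npr1+/-* (6.66) than in WT (7.19). Per 1000 FPKM of smooth muscle markers the groups stayed apart. *Adra1b* was there at 0.113, 0.0868 and 0.09 FPKM in WT 1 to 3 and 0.31, 0.138 and 0.127 FPKM in *Npr1+/-* 1 to 3. Per 1000 FPKM of fat markers the groups overlapped. The part of these cell types in the *Adra1b* values was not tested.

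All 3 alpha 2 genes, which encode the Gi-coupled receptors that also restrain noradrenaline release from nerve endings, were at low levels in WT and higher in every *Npr1+/-* library than in the WT library of its number. *Adra1a*, *Adra1b* and *Adrb3* were also higher in each *Npr1+/-* library by number. The share of all genes so placed was not counted, and no label gives the numbers as pairs. Promoter sequences are shown for *Adra2b* and, from the alpha 1 genes, for the inner start of *Adra1b*, as examples from receptor genes with a higher *Npr1+/-* value in all 3 pairs. Both windows lay outside the GENCODE exons of their own gene. Each line gives the 250 bases before a RefSeq start on GRCm38.p6, 5′ to 3′ on the strand of the gene, with the GC box GGGCGG or its reverse complement CCGCCC in capitals. The *Adra1b* stretch (chr11:43836490-43836739, minus strand) lies before the inner of 2 listed starts, within an intron of the longer GENCODE M21 transcripts, and the *Adra2b* stretch (chr2:127362929-127363178, plus strand) lies before the only listed start.
*Adra1b*: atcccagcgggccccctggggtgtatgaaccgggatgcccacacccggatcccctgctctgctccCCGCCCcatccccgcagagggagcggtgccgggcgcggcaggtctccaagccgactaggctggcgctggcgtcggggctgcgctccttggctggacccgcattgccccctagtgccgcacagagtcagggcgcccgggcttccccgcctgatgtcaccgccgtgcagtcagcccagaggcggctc
*Adra2b*: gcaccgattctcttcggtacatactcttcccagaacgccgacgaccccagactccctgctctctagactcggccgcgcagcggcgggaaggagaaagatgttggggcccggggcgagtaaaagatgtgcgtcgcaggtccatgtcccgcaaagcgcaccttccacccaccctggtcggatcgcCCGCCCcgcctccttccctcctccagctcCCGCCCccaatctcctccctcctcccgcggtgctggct

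The *Adra1b* stretch held 1 GC box and the *Adra2b* stretch 2, and a GC box was found in 32.7% of all 32851 RefSeq promoter windows of this length. Neither held the TATA motif TATAAA, the E box CACGTG or the cyclic AMP half-site TGACG on either strand, which were found in 12.4%, 6.02% and 17.8% of all windows. The window of *Adra2a* held 1 match of each of these 4 motifs, and that of *Adra2c* held the E box alone. The windows of *Adra2a* and *Adra2c* overlap a GENCODE exon of their own gene and are not printed. GC content was 72.8%, 66.0%, 67.6% and 53.6% in the windows of *Adra1b*, *Adra2b*, *Adra2a* and *Adra2c*, where the median of all windows was 52.4%. The window of the outer *Adra1b* start, not printed, had a GC content of 41.6% and none of the 4 motifs. These matches are descriptions of the letters and do not mark binding sites. RefSeq promoters were found for 5 of the 8 genes, and *Adra1a*, *Adra1d* and *Adrb3* had none in the table used.

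*Adra2a* (NCBI gene 11551, chromosome 19, 54044151 to 54048982, plus strand) encodes the alpha 2A receptor, a brake on sympathetic transmitter release that is also found on endothelium and fat cells. It was at 0.31, 0.56 and 1.22 FPKM in WT 1 to 3 and at 2.54, 1.80 and 1.64 FPKM in *Npr1+/-* 1 to 3, from 16 to 141 estimated counts per library. The groups did not overlap, and WT 1, the lowest library, faced *Npr1+/-* 1, the highest. In normalized CPM the means were 2.69 ± 1.90 (SD, n = 3) and 7.70 ± 2.07 (SD, n = 3). The fitted log2 fold change of *Adra2a* was 1.50 (95% interval 0.27 to 2.74, standard error 0.52, unadjusted p = 0.0237, adjusted p = 0.999, edgeR), and the exact permutation p was 0.1. It was between 1.15 and 2.21 without each library in turn, and 0.92 without both libraries numbered 1, less than the full value by more than 1.5 times.

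Endothelial marker sums, like *Adra2a*, were higher in every *Npr1+/-* library than in every WT library. Within WT the order differed, since *Adra2a* was lowest in WT 1 and the sum was lowest in WT 2. The summed FPKM of *Pecam1*, *Cdh5*, *Tie1*, *Kdr*, *Vwf* and *Emcn* was 121 in WT 2, 176 in WT 1 and 196 in WT 3, against 227 in *Npr1+/-* 3, 230 in *Npr1+/-* 2 and 318 in *Npr1+/-* 1, so the sums of the groups did not overlap, and 3 of the 6 genes (*Pecam1*, *Tie1* and *Vwf*) were apart on their own. In normalized CPM, 3.9% of all tested genes had every *Npr1+/-* library above every WT library. *Pecam1* was the largest part of the endothelial sum in each library, at 69.7 to 121 FPKM in WT and 134 to 143 FPKM in *Npr1+/-* aortas. None of the 6 endothelial markers passed the threshold between genotypes in edgeR. Per 1000 FPKM of these markers *Adra2a* was 1.76, 4.64 and 6.24 FPKM in WT 1 to 3 and 7.98, 7.82 and 7.24 FPKM in *Npr1+/-* 1 to 3. The groups remained apart on this scale for *Adra2a*, with the 3 *Npr1+/-* values close together, and WT 3 nearest to them. The highest library was 4.54 times the lowest on this scale and 8.19 times in FPKM. Per 1000 FPKM of fat markers the groups of *Adra2a* overlapped, and WT 3 was the highest library. *Adra2a* was there at 0.0425, 0.389 and 0.645 FPKM in WT 1 to 3 and 0.225, 0.473 and 0.508 FPKM in *Npr1+/-* 1 to 3. Per 1000 FPKM of smooth muscle markers the groups stayed apart. Of the sympathetic neuron markers, 2 of 10 (*Phox2a* and *Stmn2*) were apart between the groups, and 4 of 10 passed the filter on low counts. *Phox2a* was apart by little, at 0.23 FPKM in WT 3 against 0.25 FPKM in *Npr1+/-* 2. The part of these cell types in the values of the alpha 2 genes was not tested.

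**Figure D2:**
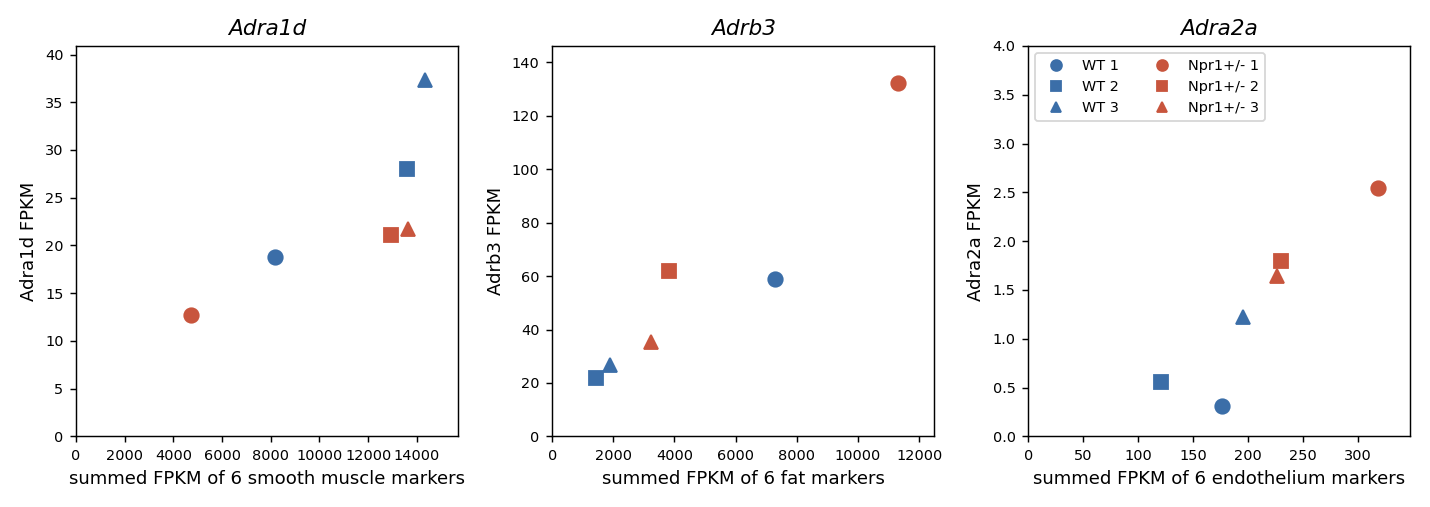
FPKM of *Adra1d*, *Adrb3* and *Adra2a* on the vertical axes against the summed FPKM of 6 smooth muscle, fat and endothelial markers on the horizontal axes, with WT in blue, *Npr1+/-* in red and a marker shape per library number. *Adra1d* was lowest where smooth muscle markers were lowest (*Npr1+/-* 1), and *Adrb3* and *Adra2a* were highest where the fat and the endothelial markers were highest (*Npr1+/-* 1).

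*Adra2c* (NCBI gene 11553, chromosome 5, 35278319 to 35281763, plus strand) encodes the alpha 2C receptor, which controls release at low rates of nerve firing and the response of skin vessels to cold. Its level was 0.18, 0.69 and 0.62 FPKM in WT 1 to 3 and 1.22, 1.15 and 0.97 FPKM in *Npr1+/-* 1 to 3, from 8 to 59 estimated counts. The groups did not overlap, and the *Npr1+/-* values lay closer together than the WT values, of which WT 1 was far below the other 2. For *Adra2c* the fit gave 1.17 as the log2 fold change (95% interval 0.02 to 2.31, standard error 0.48, unadjusted p = 0.0471, adjusted p = 0.999, edgeR), with an exact permutation p of 0.1. It was 0.78 to 1.44 without each library in turn and 0.69 without both libraries numbered 1. Per 1000 FPKM of endothelial markers the groups overlapped, at 1.02, 5.72 and 3.17 FPKM in WT 1 to 3 and 3.83, 5.00 and 4.28 FPKM in *Npr1+/-* 1 to 3. They also overlapped per 1000 FPKM of fat markers. Per 1000 FPKM of smooth muscle markers the groups stayed apart. *Adra2c* was there at 0.0221, 0.0508 and 0.0432 FPKM in WT 1 to 3 and 0.259, 0.0889 and 0.0711 FPKM in *Npr1+/-* 1 to 3.

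*Adra2b* (NCBI gene 11552, chromosome 2, 127363208 to 127367221, plus strand) encodes the alpha 2B receptor, a vasoconstrictor receptor of smooth muscle. It was too low for the filter, at 0.13, 0.07 and 0.08 FPKM in WT 1 to 3 and 0.61, 0.13 and 0.44 FPKM in *Npr1+/-* 1 to 3. These values stand for 7, 4 and 5 estimated counts in WT and 35, 8 and 27 in *Npr1+/-* libraries, so that counting error alone is large. The groups met at WT 1 and *Npr1+/-* 2. Fitted without the filter, *Adra2b* had a log2 fold change of 2.11 (95% interval 0.46 to 3.76, standard error 0.70, unadjusted p = 0.0192, adjusted p = 0.992, edgeR), and 3.1% of the 18113 genes in that fit had an unadjusted p under 0.05, with 0 calls (0%).

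**Figure D3:**
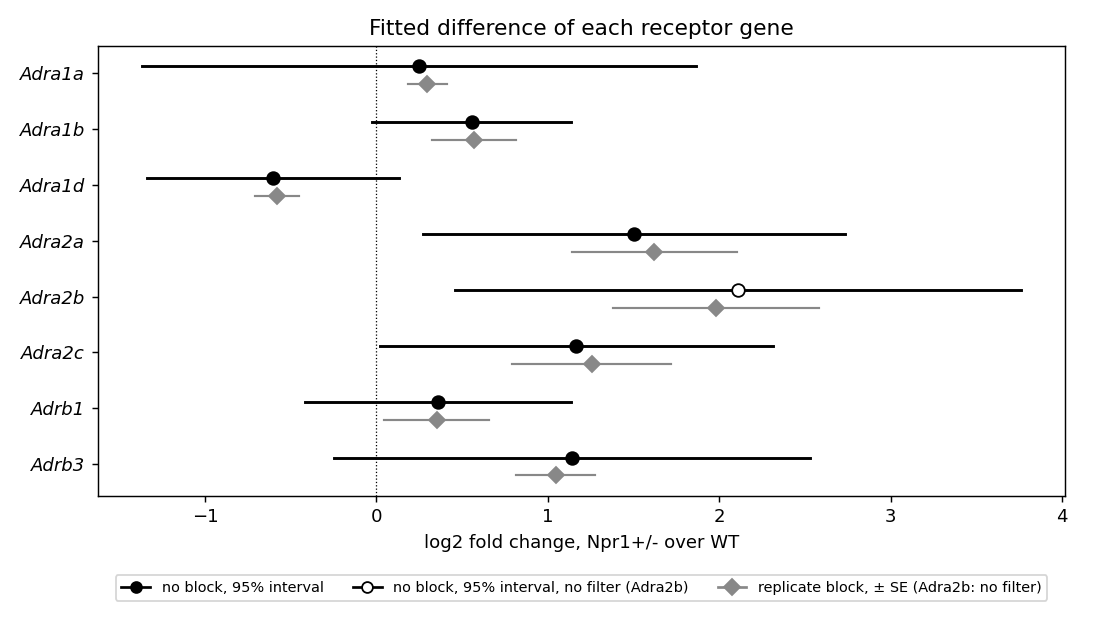
Log2 fold change of each receptor gene, *Npr1+/-* over WT, from edgeR without a block (black, bars are 95% intervals, open circle for *Adra2b* in the fit without a filter) and with a block for the replicate number (grey, bars are ± standard errors). The intervals without the block leave out 0 for *Adra2a*, *Adra2b* and *Adra2c*, before any adjustment for multiple tests, and *Adra1d* is the gene below 0.

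Of the beta genes, *Adrb3* (NCBI gene 11556, chromosome 8, 27225776 to 27250616, minus strand) encodes the beta 3 receptor that drives lipolysis and heat production in fat. It was at 58.8, 21.8 and 26.9 FPKM in WT 1 to 3 and at 132, 62.1 and 35.2 FPKM in *Npr1+/-* 1 to 3. WT 1 was above *Npr1+/-* 3 and under *Npr1+/-* 2, so the groups overlapped, while each *Npr1+/-* library was above the WT library of its number, at 239%, 293% and 124% of its normalized CPM. *Adrb3* had a log2 fold change of 1.14 (95% interval -0.25 to 2.53, standard error 0.58, adjusted p = 0.999, edgeR). It was 0.43 without *Npr1+/-* 1, was 1.67 without WT 1, and was 0.99 without both. With the block it was 1.05 (unadjusted p = 0.00227, adjusted p = 0.148).

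Fat marker RNA moved with *Adrb3*. All 6 fat markers were highest in *Npr1+/-* 1, none was at 0, and 0 of 6 had groups that did not overlap. Per 1000 FPKM of these markers *Adrb3* was 8.06, 15.1 and 14.2 FPKM in WT 1 to 3 and 11.7, 16.3 and 10.9 FPKM in *Npr1+/-* 1 to 3. The highest library was 2.02 times the lowest on this scale and 6.08 times in FPKM, and the groups were interleaved. The part of fat in the *Adrb3* and *Adra1a* values was not tested.

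Brown fat markers (*Ucp1*, *Cidea*, *Elovl3*, *Dio2*, *Cox7a1* and *Cox8b*) summed to 3518, 496 and 683 FPKM in WT and 3168, 934 and 988 FPKM in *Npr1+/-* 1 to 3, with the libraries numbered 1 highest for 6 of 6 genes. The sum was highest in WT 1, while *Adrb3* was highest in *Npr1+/-* 1. Of the 6 genes, 3 were highest in *Npr1+/-* 1 (*Ucp1*, *Cidea* and *Elovl3*) and the others in WT 1. The part of brown fat in the *Adrb3* values was not tested.

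*Adrb1* (NCBI gene 11554, chromosome 19, 56722199 to 56733113, plus strand) encodes the beta 1 receptor, best known for raising the rate and force of the heart. Its level was 1.78, 1.14 and 1.73 FPKM in WT 1 to 3 and 2.49, 1.98 and 1.44 FPKM in *Npr1+/-* 1 to 3, from 45 to 90 estimated counts. The groups overlapped, with 2 of 3 *Npr1+/-* libraries above the WT library of their number. The fit gave a log2 fold change of 0.36 (95% interval -0.42 to 1.14, standard error 0.33, adjusted p = 0.999, edgeR), and the interval covers 0 as well as values above 1. Cardiac muscle markers (*Myh6*, *Tnnt2*, *Tnni3*, *Ttn*, *Nppa* and *Actc1*) summed to 10.5 to 20.7 FPKM in WT and 18.5 to 27.1 FPKM in *Npr1+/-* libraries. Of these, *Actc1* was at 2.35, 2.22 and 0.75 FPKM in WT 1 to 3 and 19.2, 6.66 and 13.0 FPKM in *Npr1+/-* 1 to 3. The groups of the other cardiac markers overlapped.

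Among the 8 genes, the balance of the classes followed *Adra1d* and *Adrb3*. The gene of the family that is not reported here is outside these shares. Of the summed FPKM of the 8 genes, the alpha 1 genes held 32.8%, 56.2% and 57.4% in WT 1 to 3 but 16.02%, 27.7% and 39.8% in *Npr1+/-* 1 to 3. *Adrb1* and *Adrb3* together held 66.5%, 41.4% and 39.9% in WT 1 to 3 but 81.3%, 69.0% and 55.6% in *Npr1+/-* 1 to 3. Each *Npr1+/-* library thus had a smaller alpha 1 share than the WT library of its number, and the groups overlapped through WT 1. The group means were 48.8% ± 13.9 and 27.8% ± 11.9 (SD, n = 3) for alpha 1 and 49.3% ± 14.9 and 68.6% ± 12.9 (SD, n = 3) for the beta genes, in WT and *Npr1+/-* aortas. The alpha 2 genes held 0.681%, 2.39% and 2.68% in WT and 2.64%, 3.32% and 4.62% in *Npr1+/-* libraries, with *Npr1+/-* 1 just under WT 3. *Adrb3*, the share of the beta genes and the summed fat markers were all highest in *Npr1+/-* 1. WT 1 had a higher fat marker sum than *Npr1+/-* 2 but a lower share of the beta genes. The part of fat in these shares was not tested.

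**Figure D4:**
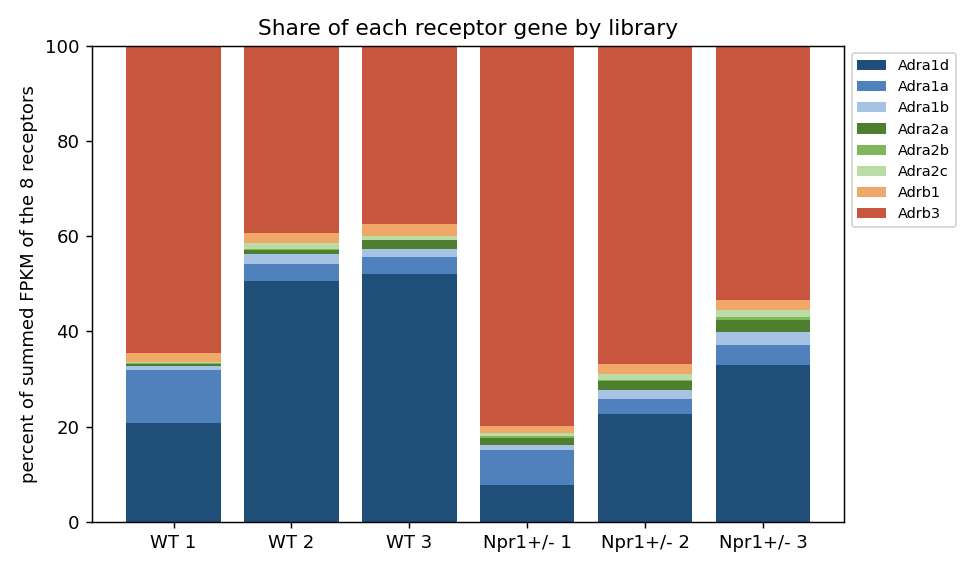
Percent of the summed FPKM of the 8 receptor genes held by each gene in each library, with alpha 1 genes in blue, alpha 2 genes in green, *Adrb1* in orange and *Adrb3* in red. *Adrb3* is the largest part in WT 1 and all *Npr1+/-* libraries and *Adra1d* in WT 2 and WT 3.

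With replicate number entered as a block, 5 of the 7 tested receptor genes had an unadjusted p under 0.05 (*Adra1a*, *Adra1d*, *Adra2a*, *Adra2c* and *Adrb3*), where 12.4% of all tested genes did, and none of the 13938 genes was called (0%, edgeR). *Adra2b*, fitted with the block and no filter, had a log2 fold change of 1.98 (unadjusted p = 0.0093, adjusted p = 0.246, edgeR), in a fit where 10.7% of genes had an unadjusted p under 0.05 and 42 of 18113 (0.232%) were called. DESeq2 called 0 of the 8 receptor genes and 0.0887% of all genes, and gave an unadjusted p under 0.05 for 4 of 8 (*Adra2a*, *Adra2b*, *Adra2c* and *Adrb3*) against 3.24% of all genes. Limma on log2(FPKM + 0.1) called 0 of 8 (0% of all genes) and gave an unadjusted p under 0.05 for 3 of 8 (*Adra2a*, *Adra2b* and *Adra2c*) against 2.82% of all genes. *Adra2a* and *Adra2c* were thus under an unadjusted p of 0.05 in each of these fits. No label gives the replicate numbers as pairs. Among libraries 2 and 3, deviations from the group means correlated across numbers (0.445 and 0.371) as well as within them (0.386 and 0.235).

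The genes around the receptors were read from 7 lists with 66 genes, of which 60 passed the filter. None was called with or without the block. An unadjusted p under 0.05 was found for 4 with a higher value in *Npr1+/-* aortas (*Slc6a2*, *Adcy4*, *Plcb2* and *Prkar1b*) and for 0 with a lower one, where 2.96% of all tested genes had one in either direction. With the block there were 8 higher and 7 lower, where 12.4% of all tested genes had an unadjusted p under 0.05 in either direction.

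Upstream of the receptors, genes that make noradrenaline (*Th*, *Ddc* and *Dbh*) had few or no counts in 5 libraries. *Th*, the rate-limiting enzyme of catecholamine synthesis, had 987 estimated counts in *Npr1+/-* 1 and 0 to 2 in the others. *Dbh*, which turns dopamine into noradrenaline, had 1856 counts in *Npr1+/-* 1 and 0 to 9 in the others. Of this list of 5 genes, 1 passed the filter, *Gch1*, which makes the cofactor of *Th* (log2 fold change 0.87, unadjusted p = 0.114, edgeR). *Slc6a2*, the noradrenaline transporter of nerve endings, was at 0.42, 0.51 and 0.18 FPKM in WT and 17.4, 0.47 and 0.25 FPKM in *Npr1+/-* 1 to 3, so its log2 fold change of 4.09 (unadjusted p = 0.0431, adjusted p = 0.999, edgeR) came from 1 library. Of the 7 genes for storage, uptake and breakdown, 6 were tested and 6 had a log2 fold change above 0. *Npr1+/-* 1 was the highest library for *Gch1*, *Slc6a2*, *Slc18a2* and *Maob*, as it was for the nerve and fat markers, whose part was not tested.

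Downstream, the G protein genes differed little. The 9 alpha subunit genes had a median log2 fold change of -0.07, with 3 above 0. *Gnas*, the Gs subunit used by beta receptors, was at 1225 ± 461 FPKM in WT and 1091 ± 292 FPKM in *Npr1+/-* aortas (SD, n = 3), and *Gnai2*, a Gi subunit used by alpha 2 receptors, was at 305 ± 27.7 and 279 ± 53.2 FPKM (SD, n = 3). Differences of both were within the spread between libraries.

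Of the 8 adenylyl cyclases tested, which make cyclic AMP, *Adcy4* was at 11.9, 9.25 and 8.65 FPKM in WT 1 to 3 and 16.2, 14.2 and 14.4 FPKM in *Npr1+/-* 1 to 3. All its *Npr1+/-* libraries were above all WT libraries (log2 fold change 0.59, standard error 0.16, unadjusted p = 0.00962, adjusted p = 0.999, edgeR). Per 1000 FPKM of endothelial markers the groups overlapped, at 67.2, 76.6 and 44.2 FPKM in WT 1 to 3 and 50.8, 61.8 and 63.3 FPKM in *Npr1+/-* 1 to 3. *Adcy5*, the most abundant cyclase, was at 123 ± 34.0 FPKM in WT and 89.9 ± 29.6 FPKM (SD, n = 3) in *Npr1+/-* aortas, with overlapping groups. *Adcy6* differed by a log2 fold change of 0.18 (unadjusted p = 0.335, edgeR). *Adcy9* was at 8.44, 7.67 and 9.05 FPKM in WT 1 to 3 and 6.87, 6.43 and 7.15 FPKM in *Npr1+/-* 1 to 3. All its *Npr1+/-* libraries were below all WT libraries (log2 fold change -0.30, unadjusted p = 0.0523, edgeR). Of all tested genes, 3.9% were so placed above and 3.58% below in normalized CPM. With the block, 1 cyclase was higher and 3 were lower at an unadjusted p under 0.05 (edgeR), against 12.4% of all tested genes.

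The 11 genes of phospholipase C, IP3 receptors and protein kinase C, which carry the alpha 1 signal, had a median log2 fold change of -0.03. *Plcb4* was at 63.8 ± 15.2 FPKM in WT and 50.2 ± 17.8 FPKM (SD, n = 3) in *Npr1+/-* aortas, and *Plcb2*, the one with an unadjusted p under 0.05 (0.0318, edgeR), did not exceed 0.26 FPKM in any library. Of 14 genes for protein kinase A, Epac and phosphodiesterases, *Prkar1b* had a log2 fold change of 2.05 (unadjusted p = 0.0419, adjusted p = 0.999, edgeR), with 12.9 FPKM in *Npr1+/-* 1 and no more than 2 FPKM in the other 5 libraries. *Pde4b*, which degrades cyclic AMP, had a log2 fold change of -0.61 (unadjusted p = 0.0873, edgeR). Among 11 receptor kinases, arrestins and RGS proteins, which end receptor signals, 0 had an unadjusted p under 0.05 and the median log2 fold change was 0.09. *Rgs5*, a marker of vessel wall cells, ranged from 154 to 599 FPKM in WT and from 179 to 713 FPKM in *Npr1+/-* libraries.

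The genes whose pattern was most like that of a receptor gene were found by the root mean square difference of mean-centred log2 CPM over the 6 libraries, among 13938 genes. *Ly75* was nearest to *Adra1d* at 0.03, followed by *Creb3l2* and *Hdac11*. *Coq9*, *Ivns1abp* and *Mme* were nearest to *Adra1a*, at 0.05 to 0.07, and *Arl4d*, *Lmnb2* and *Enpp6* to *Adra1b*, at 0.07 to 0.09. *Slc6a13*, *Mtarc1* and *Tmem120b* were nearest to *Adrb3*, at 0.09 to 0.12, and *H2bc6*, *Rpgr* and *Il2rg* to *Adrb1*, at 0.10 to 0.11. *Adra2b*, below the filter, was not compared. The nearest genes of *Adra2a* and *Adra2c* were less close, with 0.23 for *Pkhd1l1*, 0.31 for *AU021092* and 0.40 for *Degs2* beside *Adra2a* and with 0.28 for *Recql4*, 0.28 for *Degs2* and 0.29 for *Hoxa9* beside *Adra2c*. *Degs2* was on both lists. Likeness was measured over 6 libraries that share the same 2 groups and carries no test.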

How the data were processed

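RNA-seq of 6 libraries of whole aorta was used. The authors filtered reads with SOAPnuke, aligned them to a coding gene set with Bowtie2 and deposited RSEM estimated counts, not normalized, and FPKM, scaled by transcript length and library size. The labels name mm10. The release of the gene set is not given in the sources used here. RSEM divides reads shared by isoforms or similar genes. All columns of single libraries were used (0 left out), and the authors' group means were not. Of 18191 genes, 18070 matched a symbol. Coordinates are from GENCODE M21 (GRCm38) and promoters from RefSeq (GRCm38.p6).

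Estimated counts were rounded and tested in R 4.3.3 with edgeR 4.0.16 (TMM, filter with a minimum count of 10, quasi-likelihood test, Benjamini-Hochberg adjustment over 13938 genes). Calls needed an adjusted p below 0.05 and a log2 fold change of 0.5 or more in either direction. Alternatives were DESeq2 1.42.0, its size factors, no filter, limma 3.58.1 on log2(FPKM + 0.1) where the mean FPKM reached 0.1, the replicate number as a block, and leaving out each library. Values per 1000 summed marker FPKM, fits without both libraries numbered 1 and the fits of *Adra2b* without the filter were chosen after seeing the data. Totals were 13510970 to 16664343 per library, and 3 counts were the smallest signal considered. Class shares are given without a test. The fits were also run on simulated counts with large set changes and only random spread within a group. That run does not show how the fits perform with the differences between libraries seen here.

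The receptor genes, pathway lists and marker lists were chosen with earlier results of these data known, and some genes, 1 of them of the family, are not reported here. Named genes are the receptors, *Npr1*, the 2 most abundant and the 2 with the smallest unadjusted p of each pathway list, the markers, and the 3 nearest patterns. Groups and numbers come from the labels. Deviations from the group means correlated at 0.64, 0.39 and 0.24 between same-numbered libraries 1 to 3 (other pairs -0.58 to 0.45). WT 3 with *Npr1+/-* 2 and WT 2 with *Npr1+/-* 3 correlated at 0.445 and 0.371, so only the pair numbered 1 stood out. The numbers were treated as pairs, and the results by number or with the block rest on that choice. Where the numbers come from is not stated.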

Additional observations from a re-analysis of the deposited data

How the results depend on the processing

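No receptor gene was called in any fit run. Over all genes, DESeq2 called 16 and the fit without both libraries numbered 1, added after seeing the data, called 1, where edgeR with all libraries called 0. Leaving out each library gave 0 calls, with 194 to 865 genes at an unadjusted p under 0.05. The log2 fold change of *Adra1a* changed sign without some libraries, at -0.06 without WT 2, -0.07 without WT 3 and -0.57 without *Npr1+/-* 1, in a range of -0.57 to 1.15. The other receptor genes kept their direction, with ranges of 0.42 to 0.68 for *Adra1b*, -0.83 to -0.33 for *Adra1d*, 1.15 to 2.21 for *Adra2a*, 1.62 to 2.53 for *Adra2b* without the filter, 0.78 to 1.44 for *Adra2c*, 0.12 to 0.56 for *Adrb1* and 0.43 to 1.67 for *Adrb3*. The cause was not tested. Pairing by the replicate block gave 0 calls with the filter, as did the fit without the block, and 42 calls without the filter (none a receptor gene). The alpha 1 share differed by -28.96 to -15.06 percentage points without each library in turn. Counts of 4 to 35 limit *Adra2b*.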

Other observations

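The deposited FPKM and counts of *Adra1a* were not in a fixed ratio. The transcript length that turns one into the other was 8263, 12227 and 9139 bases in WT 1 to 3 and 7288, 10791 and 9991 bases in *Npr1+/-* 1 to 3, while for *Adra1d* it stayed between 2396 and 2402 bases. RefSeq lists 4 curated mRNAs of *Adra1a* and 1 of *Adra1d*. The libraries numbered 1 had the lowest such length of their group, so the gap between them and the other libraries was larger in FPKM than in the 1128, 362 and 375 estimated counts of WT and the 1307, 486 and 436 of *Npr1+/-* 1 to 3.

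Fibroblast markers summed to 951 to 1548 FPKM in WT and 916 to 1264 FPKM in *Npr1+/-* libraries, and leukocyte markers to 117 to 296 and 147 to 206 FPKM.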
